A study of Mus musculus with 24 samples.

Results

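Naive mouse embryonic stem cells (ESCs) with a low mitochondrial membrane potential (low ΔΨm), sorted by their weak TMRM dye signal, were cultured with S-adenosyl methionine (SAM), and their total RNA was set against that of low-ΔΨm ESCs that received no SAM. The comparison used 6 of the 24 RNA libraries of the series, in 3 groups of 2: low-ΔΨm ESCs with 50 µM SAM, low-ΔΨm ESCs with 25 µM SAM, and untreated low-ΔΨm ESCs, all taken by their labels. High-ΔΨm ESCs (2 libraries, sorted beside the untreated low cells) and unsorted naive ESC cultures without SAM (6 libraries, 2 each with H2O, DMSO or control siRNA) were used to place the values. Culture time was not controlled. The SAM-treated cells were kept in culture for about a day after the sort, the untreated low-ΔΨm cells were collected at the sort, no low-ΔΨm culture without SAM was analysed, and the 2 kinds of cells stand in tables that were normalized separately. SAM, culture after the sort and table therefore cannot be told apart in the comparison with untreated cells, which is given as a description with no p-value. Only 50 against 25 µM SAM lies within 1 table and was tested. Replicates are separate samples by their labels, and the cultures behind them were not named.

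SAM is made from methionine and ATP by methionine adenosyltransferase, and it is the methyl donor for enzymes that methylate DNA, RNA and histones, among them the H3K27 methyltransferase complex PRC2. ESC cultures contain rare cells that express genes of the 2-cell (2C) embryo, such as the Zscan4 family and transcripts driven by the endogenous retrovirus MERVL, and the transcription factor Dux is a known activator of this program. Naive pluripotency is held by factors such as KLF4 and PRDM14, whereas DNMT3L, DNMT3B, UTF1 and LIN28A mark the step towards formative pluripotency. The study added SAM to ask whether supplying this methyl donor changes the state of low-ΔΨm cells.

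The FPKM values (fragments per kilobase of transcript, relative to the depth of the library) were scaled so that the median gene had the same level in each library, and levels below are scaled FPKM. The depth behind the SAM-treated libraries was estimated at 35.2 to 41.2 M fragments over genes, and behind the untreated low libraries at 40.4 and 27.3 M. Log2 levels correlated at 0.984 between the 50 µM libraries, 0.987 between the 25 µM libraries and 0.977 to 0.988 across the doses. SAM-treated libraries correlated at 0.897 to 0.930 with the untreated low libraries and at 0.948 to 0.979 with the unsorted cultures. Replicate 2 of 50 µM and replicate 1 of 25 µM lay at the opposite ends of the first principal component of the SAM-treated libraries, which held 57.2% of their variance. The naive ESC markers Pou5f1 (128 to 149 in the SAM-treated libraries, 207 and 214 in the untreated low ones), Sox2, Nanog, Zfp42, Esrrb and Tfcp2l1 were abundant in all 6 libraries.

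SAM-treated cells differed widely from untreated low-ΔΨm cells, and unsorted cultures without SAM differed from high-ΔΨm cells to a similar extent. Of 24647 genes, 4511 (18.3%) were higher and 2771 (11.2%) lower in SAM-treated cells, counting a gene when all 4 SAM-treated libraries lay on one side of both untreated libraries and the mean difference was at least 2-fold on the log2(scaled FPKM + 0.1) scale. By the same rule, 14.1% of genes were higher and 10.4% lower in the H2O cultures than in high-ΔΨm cells, with 13.9% and 10.3% in the DMSO cultures and 13.9% and 14% in the control siRNA cultures. Across genes, which are not independent replicates, the SAM-treated minus untreated low difference correlated with the unsorted minus high difference at r = 0.67. No sample is shared by these 2 differences. The unsorted cultures and the high-ΔΨm cells differ in table, in the sort and in ΔΨm, and these cannot be told apart. When the unsorted minus high difference was subtracted gene by gene, 1503 genes (6.10%) were still at least 2-fold higher and 815 (3.31%) at least 2-fold lower, which is 33.3% and 29.4% of the calls. Calls that pass this subtraction are described below as kept. Where the 2 differences of a gene have opposite signs, the subtraction can only enlarge the first, and a kept call is then no check. No test of a gene list was run, and the counts of list members below stand against the 18.3% higher and 11.2% lower among all genes. Non-coding genes raise the first share, and among protein-coding genes 7.74% were higher and 10.2% lower. Taken alone, 50 µM SAM had 5310 genes higher (21.5%) and 2762 lower (11.2%) than untreated low cells, and 25 µM SAM had 4043 higher (16.4%) and 2905 lower (11.8%). Against the unsorted cultures, a comparison added after the values had been seen, 972 genes were higher (3.94%) and 331 lower (1.34%) with SAM, and without replicate 1 of 25 µM SAM the first count was 1626.

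**Figure D1:**
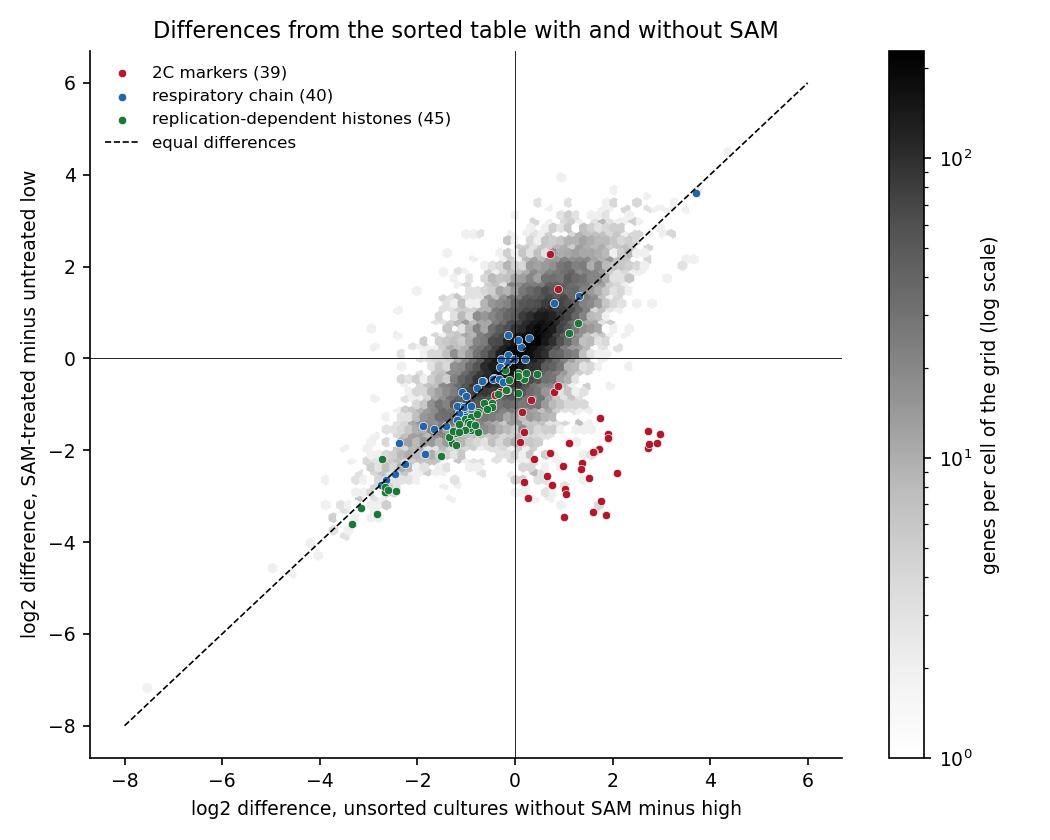
For each gene tested, the log2 difference SAM-treated minus untreated low is on the vertical axis. The log2 difference unsorted cultures minus high-ΔΨm cells is on the horizontal axis, and both are on log2(scaled FPKM + 0.1). Genes near the diagonal, such as Atp5o, differed by a like amount between cells without SAM, while Zscan4f, Lefty1 and Dnmt3l lie far from it.

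The genes called higher were mostly not protein-coding. Of 14323 protein-coding genes, 7.74% were higher and 10.2% lower, whereas 57.5% of the 1127 loci annotated as TEC, 63.9% of 180 sense-intronic loci, 50.9% of 442 small nuclear RNA loci and 34.7% of 3202 processed pseudogenes were higher. Summed FPKM over repeat loci was 1.77e+06 to 1.9e+06 in the SAM-treated libraries and 8.02e+05 and 8.44e+05 in the untreated low ones, and it was 1.61e+06 to 2.03e+06 in the unsorted cultures and 7.81e+05 and 8.44e+05 in high-ΔΨm cells. The part of this repeat signal in the higher non-coding genes was not tested. The 10 largest higher genes by the naming rule were the microRNA loci Mir694, Mir673, Mir1190, Mir19b-2, Mir664, Mir763 and Mir28b and the pseudogenes AC162805.3, AC162805.4 and AC102135.1. Their log2 differences were 3.70 to 5.19, with 1 or both untreated low libraries listed at 0. The 10 largest lower genes were the immediate early genes Egr1 and Fos, the Nodal antagonist Lefty1, the rRNA locus CT010467.1, the pseudogene AC127331.6 and the microRNA loci Mir3113, Mir7578, Mir5131, Mir3960 and Mir3062. Of these 10, Lefty1, AC127331.6 and Egr1 kept a 2-fold difference once the unsorted minus high difference was subtracted.

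Genes of the 2C program were several-fold lower in SAM-treated cells than in untreated low-ΔΨm cells, yet stayed far above the level of high-ΔΨm cells. Of 39 tested 2C markers (of 47 listed), 32 were lower and 2 higher, and the median log2 difference was -1.97, against 0.18 over all genes tested. For each of the 32, the mean with SAM was still above the mean of high-ΔΨm cells, and 28 of the 39 were at least 2-fold above the unsorted cultures with no overlap. A gene could pass the filter on low values through the 2 untreated low libraries alone, and could then hardly be called higher. Without untreated low replicate 1, 35 markers were tested, with 29 lower and 2 higher. Without replicate 2, 30 of 35 were lower and 2 higher. In such bulk RNA, fewer cells of a type and less RNA per cell cannot be told apart. All 32 kept the call, but the median unsorted minus high difference of the list had the opposite sign (1.05). Subtracting a positive difference can only make a lower value lower, so that keeping the call is no check for such genes.

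Zscan4f, a zinc-finger gene linked to telomere maintenance in ESCs, was at 14.1 and 13.6 with 50 µM SAM, 14.9 and 13.4 with 25 µM SAM, and 50.3 and 51.1 in untreated low-ΔΨm cells. It was at 0.368 and 0.353 in high-ΔΨm cells and between 2.03 and 6.999 in the unsorted cultures. No SAM-treated library overlapped with any of these, and the SAM-treated cells lay below the untreated low cells, whose mean was 3.62-fold higher, and above the unsorted cultures. Zscan4c was at 11, 10.1, 10.6 and 9.77 in the SAM-treated libraries and 38.9 and 37.3 in the untreated low ones, and at 0.269 and 0.316 in high-ΔΨm cells. Ranked within each library, Zscan4f stood at the 84.1 to 85.6 percentile of tested genes with SAM, the 95.8 and 95.9 percentile in untreated low cells and the 54.4 to 74.0 percentile in the unsorted cultures. Zscan4a, Zscan4b, Zscan4d and Zscan4e had log2 differences of -1.96, -1.58, -1.97 and -1.64. The Zscan4 genes are paralogs and fragments that map to several places were divided among their places, so that the value of a single copy is uncertain.

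The promoters of Zscan4c and Zscan4f, the copies described in most detail, are shown to let a reader see how alike the copies are at their starts. The windows run from 250 bases before to 50 bases after the RefSeq start in GRCm38.p6, on the plus strand, 5′ to 3′. Capitals mark the longest run shared by both windows, 127 bases. Zscan4c lies at chr7:11005495-11005794 and Zscan4f at chr7:11397665-11397964.
Zscan4c: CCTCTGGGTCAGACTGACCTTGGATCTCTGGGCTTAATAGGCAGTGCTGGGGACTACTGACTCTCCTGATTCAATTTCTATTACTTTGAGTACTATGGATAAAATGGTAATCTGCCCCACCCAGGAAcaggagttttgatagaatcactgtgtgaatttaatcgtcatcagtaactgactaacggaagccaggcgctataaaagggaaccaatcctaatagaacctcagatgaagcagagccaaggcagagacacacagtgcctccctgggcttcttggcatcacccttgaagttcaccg
Zscan4f: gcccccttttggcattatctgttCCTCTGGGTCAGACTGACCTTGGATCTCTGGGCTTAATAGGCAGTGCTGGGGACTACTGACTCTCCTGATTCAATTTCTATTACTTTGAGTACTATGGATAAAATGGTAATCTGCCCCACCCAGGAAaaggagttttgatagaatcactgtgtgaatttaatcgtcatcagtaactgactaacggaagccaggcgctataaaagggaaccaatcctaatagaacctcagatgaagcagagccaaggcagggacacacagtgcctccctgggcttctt

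The other 2C markers differed among themselves, and some were lower by a larger factor than Zscan4, some did not pass the call and 2 were higher. Gm4340, a 2C marker, was at 3.43 and 3.09 with 50 µM SAM, 3.27 and 2.99 with 25 µM SAM, and 33.7 and 33.4 in untreated low-ΔΨm cells, a 10.5-fold higher level without SAM. Gm2022 was at 1.935, 1.887, 1.995 and 1.986 with SAM and 24.8 and 20.2 without, and Gm21761 and Gm6763 had log2 differences of -3.42 and -3.11. These genes were thus about as low at 25 as at 50 µM, and none of their SAM-treated and untreated values overlapped. Tcstv3, a Zscan4-linked telomere gene, was at 0.275, 0.301, 0.231 and 0.149 with SAM and 2.63 and 2.70 without, and its highest unsorted library (0.206) reached into the SAM-treated range. Duxf3, the Dux gene, was at 0.0263, 0.0401, 0.0466 and 0.0181 with SAM and 0.444 and 0.565 without, and its SAM-treated range overlapped with the unsorted cultures (0.0147 to 0.101). It passed the filter only through the untreated low libraries, so that its call could hardly be other than lower. The deubiquitinase gene Usp17la was at 0.88 to 1.33 with SAM, against 4.24 and 4.84 without. Zfp352 did not reach a 2-fold difference, with 0.408 to 0.461 in SAM-treated cells and 0.636 and 0.804 in untreated low cells, and was listed at 0 in both high libraries. Trim43b and Trim43c were the 2 markers called higher, at 1.83 to 3.07 and 0.913 to 1.43 with SAM, against 0.356 and 0.420, and 0.277 and 0.337, without.

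**Figure D2:**
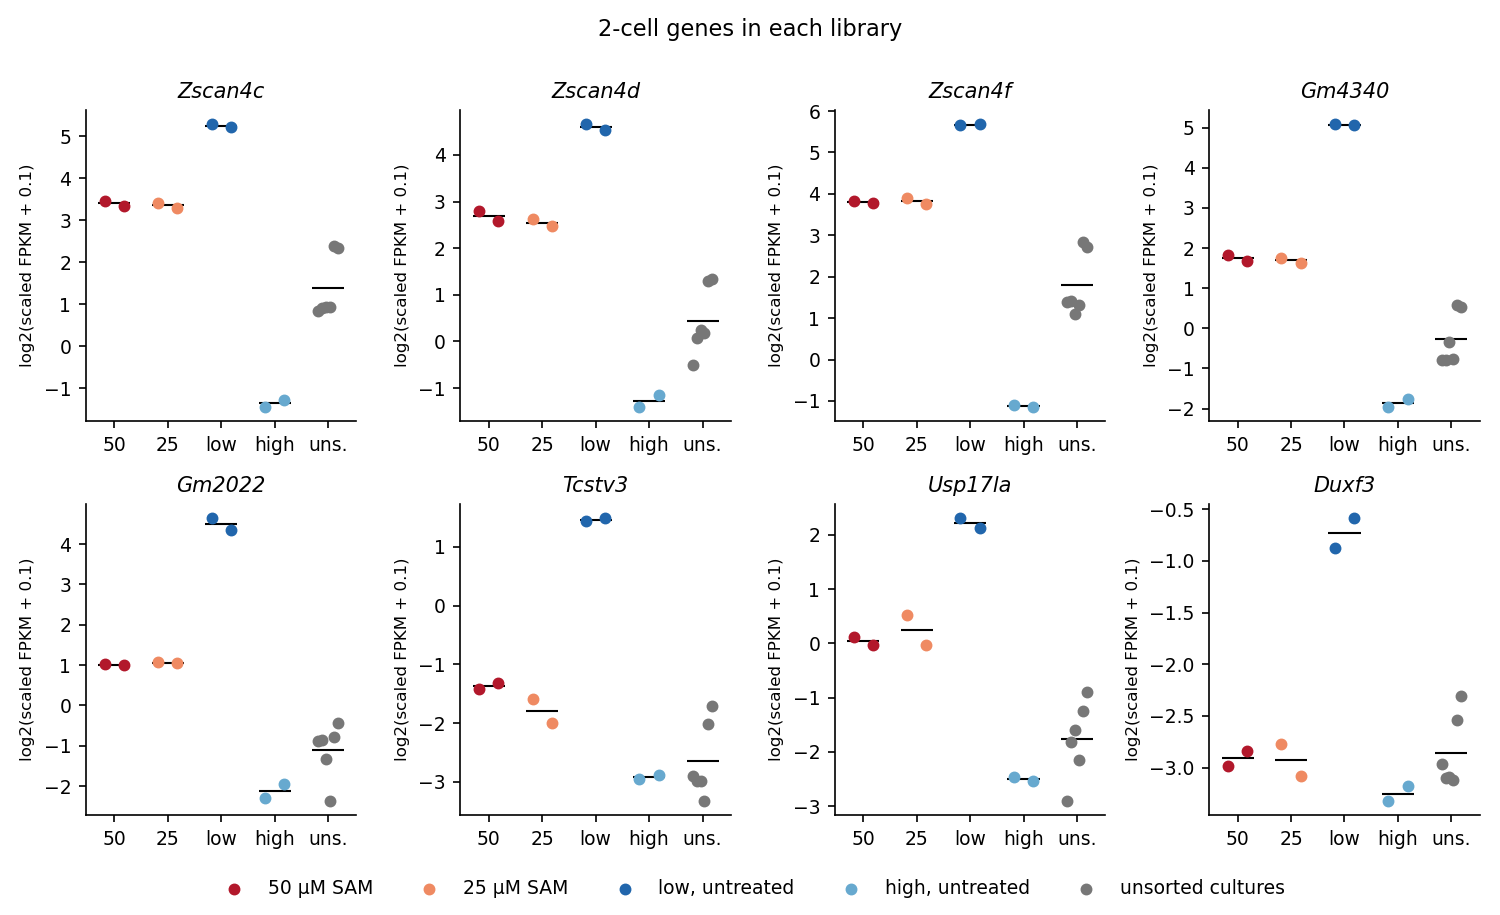
Level of 8 2C genes in each library as log2(scaled FPKM + 0.1), with the groups 50 µM SAM, 25 µM SAM, untreated low, untreated high and unsorted cultures from left to right. Points are libraries and black lines are group means. Zscan4f sits at 13.4 to 14.9 scaled FPKM with SAM, below the untreated low libraries and above the unsorted cultures, whereas Tcstv3 and Duxf3 with SAM overlap with the unsorted cultures.

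Within the sorted table, untreated low-ΔΨm cells exceeded high-ΔΨm cells in 36 of the 39 2C markers by limma (adjusted p under 0.05), with 19.8% of all 21086 genes higher and 16.7% lower. Zscan4f was 6.78 higher in low than in high on the log2 scale (limma adjusted p = 0.000111). This comparison shares its low libraries with the SAM comparison and its values are only set beside it. Of the 145 2C genes chosen by the study, which were picked on these sorted libraries and are no independent evidence of direction, 67 were lower and 3 higher with SAM (median log2 difference -0.93), and 59 kept the lower call after the subtraction. For 47 of the 67, the mean with SAM lay above the mean of high-ΔΨm cells. Within the SAM-treated libraries alone, 132 of the 145 genes passed the filter on low values, and the others could hardly be called higher. The median unsorted minus high difference of the 145 genes was 0.48, so that the limit of the subtraction holds here too.

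MERVL, the retrovirus whose long terminal repeat drives many 2C genes, did not differ on the gene-scaled values but differed in its rank among repeats. Its internal part, MERVL-int_LTR_ERVL, averaged 0.561 ± 0.145 (SD, n = 4) in SAM-treated cells and 0.585 ± 0.00725 (SD, n = 2) in untreated low-ΔΨm cells as mean scaled FPKM over its loci. At the same time most repeat families were higher with SAM: 998 of 1448 families (68.9%) were called higher and 36 (2.49%) lower, with a median log2 difference of 1.38, and the unsorted minus high median was 0.70. Relative to the median family of the same library, MERVL-int was at 2.42 to 2.71 with SAM, 7.86 and 8.60 in untreated low cells, 0.761 and 0.836 in high cells and 1.77 to 2.22 in the unsorted cultures. It ranked 223 to 247 among the families with SAM, 115 and 121 in untreated low cells, 832 and 864 in high cells and 335 to 426 in the unsorted cultures. After subtraction of the unsorted minus high difference, MERVL-int had the lowest value of all 1448 families (-2.03). As SAM-treated and untreated low cells were alike before the subtraction (0.561 and 0.585), this value is mostly the subtracted difference between cells without SAM. MT2_Mm_LTR_ERVL, its long terminal repeat, was at 1.71 to 1.87 of the median family with SAM, against 3.01 and 3.34 in untreated low cells. IAPEz-int_LTR_ERVK, an active retrovirus family outside the 2C program, had a log2 difference of 1.75, and 1.13 between the unsorted cultures and high cells.

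Single genes that mark the step towards formative pluripotency, Dnmt3l, Dnmt3b, Utf1 and Lin28a, were higher in all 4 SAM-treated libraries than in every untreated library shown. Most members of the core and formative list did not pass the call. Dnmt3l, the cofactor of the de novo DNA methyltransferases, was at 49.1 and 50.2 with 50 µM SAM, 48.5 and 51.0 with 25 µM SAM, and 4.07 and 4.05 in untreated low-ΔΨm cells. It was at 6.80 and 6.73 in high-ΔΨm cells and 1.39 to 9.36 in the unsorted cultures, so that all 4 SAM-treated libraries lay above every other library shown (log2 difference 3.58, and 4.17 after the subtraction). In rank, it stood at the 96.1 to 96.5 percentile with SAM and the 64.7 and 65.0 percentile in untreated low cells. Dnmt3b, a de novo DNA methyltransferase, was at 33.9 to 36.4 with SAM and 14.6 and 15.2 without, above the highest unsorted library (29.1). Utf1, a chromatin-bound pluripotency factor, was at 84.2 to 94.3 with SAM and 29.9 and 32.3 without, and the RNA-binding let-7 inhibitor Lin28a at 36.9 to 40.4 with SAM and 12.9 and 13.4 without. Otx2, a formative transcription factor, was at 0.705 to 1.11 with SAM and 0.132 and 0.139 without, but its difference was under 2-fold after the subtraction (0.79). Of 17 core and formative genes, a list that does not hold Dnmt3l, 5 were higher and 1 lower. Their median log2 difference was 0.12, against 0.18 over all genes tested and 0.02 over protein-coding genes. Of the higher ones 4 kept their call, and against the unsorted cultures 1 was higher and 1 lower.

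Of 20 naive pluripotency genes, 4 were lower and none higher, against 11.2% of all genes lower. After the subtraction 2 kept the call, and none was lower than the unsorted cultures by the same rule. Klf4 was at 43.9, 42.6, 46.8 and 41.4 in SAM-treated cells and 105 and 106 in untreated low-ΔΨm cells, and Prdm14, a repressor of de novo methylation genes, at 6.43, 5.64, 6.62 and 6.65 with SAM and 16.5 and 15.8 without. Both stayed at least 2-fold lower after the subtraction (-1.02 for Klf4 and -1.31 for Prdm14), and the SAM-treated values lay below those of high-ΔΨm cells and of every unsorted culture. Dppa3 and Dppa5a, the other 2, had log2 differences of -1.56 and -1.63 and did not keep a 2-fold difference. Pou5f1, Sox2, Nanog, Zfp42, Esrrb and Tfcp2l1 had log2 differences of -0.61, -0.83, -0.39, -0.77, -0.57 and -0.31, short of the call. The list median was -0.45, with -0.16 on the deposited scale and -0.09 after the subtraction. Of 17 genes for DNA and H3K9 methylation, 3 were higher and none lower. The higher share was close to the 18.3% of all genes, with 7.74% among protein-coding genes. The 3 were Dnmt3l, Dnmt3b and the 5-methylcytosine dioxygenase Tet3 (1.10 to 1.27 with SAM and 0.503 and 0.592 without).

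Single genes downstream of Nodal and Wnt, led by Lefty1, Lefty2, Sp5 and T, were lower in SAM-treated cells, while most members of both lists did not pass the call. Both lists were added after the values had been seen. Of 14 tested Nodal and activin genes, 5 were lower and none higher, against 11.2% of all genes lower, and 3 kept the lower call after the subtraction. Lefty1, a Nodal antagonist that Nodal signalling itself induces, was at 0.0206 and 0.176 with 50 µM SAM, 0.0896 and 0.106 with 25 µM SAM, and 12.5 and 13.7 in untreated low-ΔΨm cells. It was at 2.15 and 2.37 in high-ΔΨm cells and 1.24 to 14.1 in the unsorted cultures, so that the SAM-treated cells lay below all other libraries shown. In rank, Lefty1 stood at the 1.40 to 9.20 percentile with SAM and the 82.8 and 84.2 percentile without. Its paralog Lefty2 was at 0.166 to 0.261 with SAM, 8.37 and 8.66 without and 3.40 to 23.0 in the unsorted cultures, and the inhibitory SMAD gene Smad7 at 7.05 to 7.61 with SAM and 34.8 and 35.0 without. Nodal itself, named after its values were seen, was at 21.5 to 24.3 with SAM and 29.0 and 30.1 without, short of the call, and its co-receptor gene Tdgf1 had a log2 difference of 0.08. Gsc, the homeobox gene goosecoid, had a log2 difference of -2.06, and of -2.20 between the unsorted cultures and high-ΔΨm cells.

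Of 17 tested Wnt and β-catenin targets, 6 were lower and 1 higher (median log2 difference -0.45, and -0.87 after the subtraction), and 7 were below the unsorted cultures by the same rule. Sp5, a direct β-catenin target that encodes a zinc-finger repressor, was at 7.47 and 6.51 with 50 µM SAM, 10.98 and 7.90 with 25 µM SAM, and 64.2 and 65.2 in untreated low-ΔΨm cells. It was at 77.2 and 84.0 in high-ΔΨm cells and 25.8 to 42.8 in the unsorted cultures. T (brachyury), the mesoderm transcription factor, was at 0.524, 0.294, 0.605 and 0.519 with SAM, 2.99 and 2.99 without and 3.30 to 5.6 in the unsorted cultures. For both genes the SAM-treated values were thus the lowest of all groups shown. Notum, a secreted Wnt deacylase, was at 10.5 to 11.9 with SAM and 42.8 and 43.1 without, and the caudal factor Cdx1 at 10.9 to 15.4 with SAM and 54.6 and 55.8 without. Axin2, a feedback inhibitor named after its values were seen, had a log2 difference of -1.03 and did not keep a 2-fold difference after the subtraction (-0.87). The 1 higher target was Ascl2, a trophoblast factor, at 1.68 to 1.80 with SAM and 0.621 and 0.683 without.

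Sp5 and T lead the Wnt list, and their promoters are printed because both hold a TCF/LEF word. The words searched were CTTTGAT and CTTTGAA on both strands, which 8.65% of 32851 RefSeq promoter windows of 300 bases hold, as do 3 of the 13 Wnt list members with a window. The window of Sp5 is chr2:70474673-70474972 and that of T is chr17:8434173-8434472 (GRCm38.p6, plus strand, 5′ to 3′), and capitals mark the word, whose first base lies 104 bases upstream of the start in Sp5 and 235 bases upstream in T. A match describes the letters and is not shown to be a bound site.
Sp5: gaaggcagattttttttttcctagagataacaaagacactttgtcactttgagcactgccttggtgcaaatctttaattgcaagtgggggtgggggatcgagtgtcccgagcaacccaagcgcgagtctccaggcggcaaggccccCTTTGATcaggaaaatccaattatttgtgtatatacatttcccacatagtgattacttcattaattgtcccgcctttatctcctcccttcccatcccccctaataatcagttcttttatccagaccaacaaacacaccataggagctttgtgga
T: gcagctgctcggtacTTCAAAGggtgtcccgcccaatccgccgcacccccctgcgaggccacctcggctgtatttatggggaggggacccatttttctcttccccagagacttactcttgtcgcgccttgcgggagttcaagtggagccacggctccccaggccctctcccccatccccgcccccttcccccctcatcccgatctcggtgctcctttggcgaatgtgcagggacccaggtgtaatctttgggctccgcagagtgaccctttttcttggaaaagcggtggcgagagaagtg

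**Figure D3:**
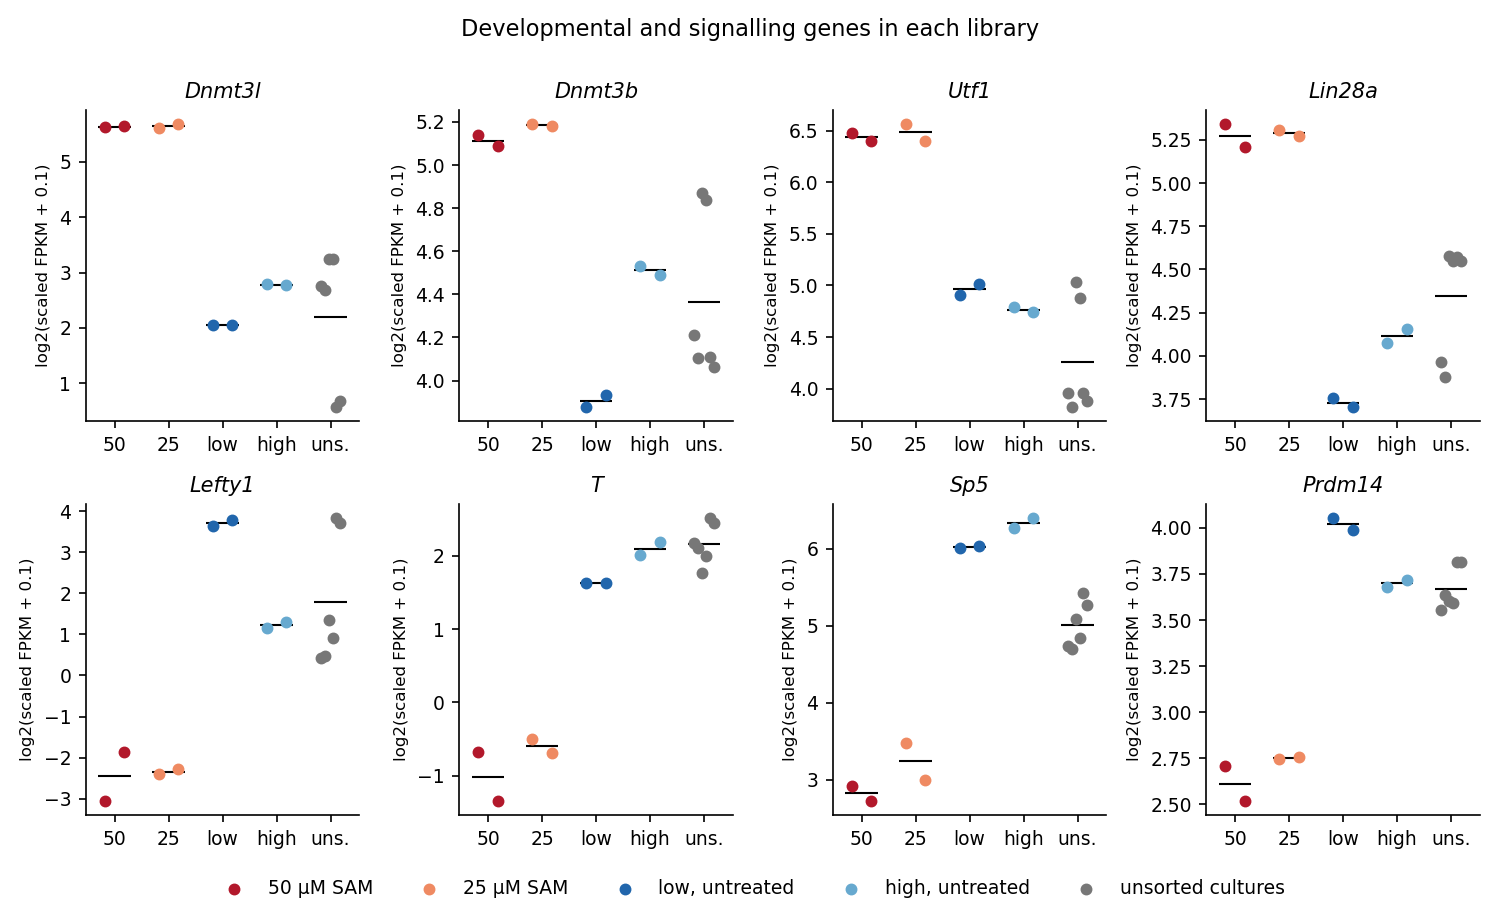
Level of 8 developmental and signalling genes in each library as log2(scaled FPKM + 0.1), with 50 µM SAM, 25 µM SAM, untreated low, untreated high and unsorted cultures from left to right. Points are libraries and black lines group means, and axes do not start at 0. Dnmt3l, Dnmt3b, Utf1 and Lin28a with SAM lie above all other libraries, and Lefty1, T, Sp5 and Prdm14 with SAM lie below them.

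Most genes of the methionine cycle did not pass the call. Of 14 methionine cycle genes, 2 were lower and none higher, and neither kept the call after the subtraction (median log2 difference -0.01). Mat2a, the SAM synthetase of these cells, was at 52.5 and 56.5 with 50 µM SAM, 53.6 and 53.9 with 25 µM SAM and 40.2 and 38.6 in untreated low-ΔΨm cells, a log2 difference of 0.46 and short of the call. The 2 lower genes were the homocysteine methyltransferases Bhmt2 (3.07 to 3.98 with SAM and 10.4 and 10.6 without) and Bhmt (1.21 to 1.41 with SAM and 3.25 and 3.56 without). The serine pathway genes Phgdh and Psat1, the mitochondrial serine and folate genes Shmt2 and Mthfd2 and the glycine cleavage gene Gldc had log2 differences of 0.87, 0.82, 0.22, 0.61 and 0.91. All 5 had been lower in low than in high-ΔΨm cells (limma adjusted p between 0.00101 and 0.00271), and their SAM-treated means lay above those of the untreated low libraries without reaching 2-fold. Of 23 serine and folate genes, 1 was higher (Aldh1l2) and 2 lower (Aldh1l1 and Gcat).

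Of 7 SAM-dependent small-molecule methyltransferases, 1 was lower and none higher, with a list median of -0.74. The lower one was Nnmt, which methylates nicotinamide, at 0 to 0.0327 with SAM and 0.163 and 0.362 without, and it did not keep the call (-0.81). Nnmt passed the filter on low values only through the untreated low libraries, so that its call could hardly be other than lower. With either untreated low library left out, 6 genes were tested and none was called. Among 15 PRC2 genes only Epop, a PRC2 accessory gene, was called, at 57.3 to 71.1 with SAM and 123 and 128 without, and it did not keep the call. The core subunit genes Ezh2, Eed and Suz12 and the paralog Ezh1 had log2 differences of 0.36, 0.25, 0.46 and 0.28. Among polyamine genes, spermine oxidase Smox was at 1.34 to 1.83 with SAM and 6.34 and 6.77 without. Spermine synthase Sms, which uses decarboxylated SAM, was at 9.04 to 10.1 with SAM and 3.35 and 3.49 without. Both Smox and Sms kept a 2-fold difference. Ornithine decarboxylase Odc1 was higher by 1.69 on the log2 scale, and the unsorted cultures were higher than high-ΔΨm cells by 1.31.

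Few cell cycle genes passed the call. Of 40 G2 and mitosis genes, 2 were higher and none lower, against 18.3% of all genes and 7.74% of protein-coding genes higher. Neither kept the call, and none differed from the unsorted cultures by the same rule, while the median log2 difference over the list was 0.48 and became 0.70 after the subtraction. Among the sorted untreated cells, 35 of these 40 were lower in low than in high-ΔΨm cells by limma. Ccnb1, the mitotic cyclin, was at 39.7 and 38.0 with 50 µM SAM, 36.5 and 40.6 with 25 µM SAM and 13.5 and 12.2 in untreated low-ΔΨm cells. It was at 22.3 and 22.9 in high-ΔΨm cells and 33.1 to 45.9 in the unsorted cultures, so that the SAM-treated values overlapped with the unsorted ones, and its difference was 0.84 after the subtraction. Cdk1 was at 25.4 to 27.8 with SAM and 18.03 and 19.21 without.

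Of 18 G1 cyclins, CDK inhibitors and pocket proteins, 5 were lower and 1 higher, and 2 of the lower ones kept the call (median log2 difference -0.47). Among 32 p53 targets, 5 were lower and none higher, against 11.2% of all genes lower (median log2 difference -0.34, and -0.05 on the deposited scale), and 24 of the 32 had been higher in low than in high-ΔΨm cells by limma. Cdkn1a, the CDK inhibitor p21, was at 19.9 and 19.7 with 50 µM SAM, 19.6 and 17.4 with 25 µM SAM and 51.6 and 51.0 in untreated low-ΔΨm cells, below the lowest unsorted library (26.3). The stress-induced mTOR inhibitor Ddit4 was at 6.51 to 7.83 with SAM and 22.4 and 23.7 without, and the BH3-only cell death gene Bbc3 at 3.34 to 3.97 with SAM and 10.03 and 10.99 without. The median unsorted minus high difference of the p53 list was 0.28, and for members with a positive difference a kept lower call is no check. Cdkn1a, Ddit4 and Bbc3 kept the call after the subtraction. Phlda3, an AKT inhibitor, had a log2 difference of -2.02 and did not keep it (-0.33). Ccng2, a cyclin of non-dividing cells, was at 0.587 to 0.769 with SAM and 1.73 and 1.89 without. Of 38 S phase genes, 2 were lower and none higher, and neither Pcna nor Dut kept the call.

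Metabolic genes differed in separate directions. In the hypoxia and glycolysis list, 7 of 30 were lower and 1 higher, with a median log2 difference of -0.20 that became 0.07 on the deposited scale and -0.62 after the subtraction. Triosephosphate isomerase Tpi1 was at 18.4 to 23.9 with SAM and 59.5 and 61.2 without, against 45.4 to 71.1 in the unsorted cultures. The glucose transporter gene Slc2a3 was at 77.8 to 83.0 with SAM and 191 and 194 without, and the collagen prolyl hydroxylase P4ha2 at 0.255 to 0.403 with SAM and 1.29 and 1.36 without. Tpi1, Slc2a3 and P4ha2 all kept a 2-fold lower value. The median unsorted minus high difference of the list was 0.43, and for members with a positive difference a kept lower call is no check. Gapdh, the 1 gene called higher, had a difference of 1.36, of which 0.93 was also seen between unsorted cultures and high-ΔΨm cells.

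Cpt1a, the gate of fatty acid entry into mitochondria, was at 5.53 and 5.13 with 50 µM SAM, 6.43 and 6.17 with 25 µM SAM and 18.5 and 18.4 in untreated low-ΔΨm cells, below the lowest unsorted library (14.8). It was the only one of 4 lower genes among 22 for fatty acid oxidation that kept the call. Lysosome and autophagy genes had a median log2 difference of -0.79, with 7 of 30 lower, none higher and 4 keeping the call. Cathepsin B (Ctsb) was at 10.3 to 11.8 with SAM and 38.1 in both libraries without, and the hexosaminidase gene Hexa at 12.4 to 13.7 with SAM and 42.8 and 44.9 without. Cholesterol synthesis genes had 5 of 31 higher and 2 lower, against 18.3% and 11.2% of all genes and 7.74% and 10.2% of protein-coding genes. The isoprenoid and sterol enzymes Idi1 and Nsdhl kept the higher call, at 25.9 to 30.2 and 18.5 to 21.1 with SAM, against 7.30 and 7.65, and 6.71 and 7.07, without. The median unsorted minus high difference of the list was -0.41, and for members with a negative difference a kept higher call is no check. Of 33 ATF4 targets, 6 were higher and 1 was lower. The higher share was about the 18.3% of all genes, with 7.74% among protein-coding genes. Only Chac1, a glutathione-degrading enzyme, kept the higher call, at 6.43 and 6.04 with 50 µM SAM, 8.47 and 8.92 with 25 µM SAM and 1.37 and 1.15 without.

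Germline genes that are silenced by DNA methylation in somatic cells had 9 of 33 higher and 3 lower, and 8 of the higher ones kept the call. The median unsorted minus high difference of the list was -0.49. Subtracting a negative difference enlarges a higher value, so that keeping the call is no check for such genes. Several of the germline genes are X-linked and had been low in untreated low-ΔΨm cells. Rhox5, a reproductive homeobox gene, was at 20.98, 19.59, 20.69 and 19.19 in SAM-treated cells, 8.97 and 10.2 in untreated low-ΔΨm cells, 78.8 and 91.2 in high-ΔΨm cells and 2.42 to 24.4 in the unsorted cultures. Magea4, a melanoma antigen gene, was at 4.64 to 4.86 with SAM, 0.987 and 1.04 in untreated low and 7.72 and 8.65 in high cells, and Xlr4a at 2.73 to 3.20 with SAM, 0.375 and 0.467 in untreated low and 3.35 and 3.99 in high cells. For these 3 genes the SAM-treated libraries lay above the untreated low and below the high libraries, and within the range of the unsorted cultures. The imprinted gene Plagl1, a zinc-finger regulator of other imprinted genes, behaved alike, at 7.13 to 8.25 with SAM, 1.01 and 1.14 in untreated low and 10.3 and 10.8 in high cells. Of 24 imprinted genes, 8 were higher and 1 lower, and 3 kept the higher call, among them Mest (27.9 to 31.3 with SAM and 8.96 and 9.30 without).

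Eras and Soga3 were higher with SAM although they were lower in the unsorted cultures than in high-ΔΨm cells. Both were picked by a ranking on the subtracted difference that was made after the values had been seen. Eras, an ESC-expressed Ras gene, was at 4.05 to 4.91 with SAM, 1.27 and 1.62 without and 0.133 to 0.866 in the unsorted cultures. Soga3 was at 1.831 to 2.005 with SAM, 0.274 and 0.433 without and 0.0622 to 0.152 in the unsorted cultures.

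In some gene groups, much of the difference between the SAM-treated and untreated low cells was also seen between cells without SAM. Of 45 replication-dependent histone genes, 30 were lower with SAM. The list median was -1.39, with -0.90 between the unsorted cultures and high-ΔΨm cells. It was -0.46 after the subtraction, and none of the 30 kept the call. Nor did any of 6 higher and 12 lower among 45 ribosomal protein genes, or any of 3 higher and 18 lower among 40 nuclear-encoded respiratory chain genes. Atp5o, an ATP synthase subunit, was at 89.96 to 103.3 with SAM and 7.57 and 8.06 in untreated low-ΔΨm cells, and at 104 to 113 in the unsorted cultures and 7.79 and 8.67 in high-ΔΨm cells. Rpl8 was at 138 to 160 with SAM and 986.5 and 1008 without, and at 135 to 166 in the unsorted cultures. Egr1, an immediate early gene, was at 0.0820 to 0.180 with SAM and 34.8 and 40.7 without, and at 0.0478 to 0.590 in the unsorted cultures and 20.6 and 22.5 in high-ΔΨm cells. In these genes the groups fell by table, with the SAM-treated libraries next to the unsorted cultures, although Egr1 still kept a 2-fold difference after the subtraction. The table of the untreated low and high cells also holds the cells collected at the sort, so that table and culture cannot be told apart. Among 26 immediate early and ERK feedback genes, 11 were lower and 3 higher, and 5 of the lower ones kept the call, including Jun (0.637 to 0.870 with SAM, 7.77 and 8.30 in untreated low and 1.01 and 1.05 in high cells).

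**Figure D4:**
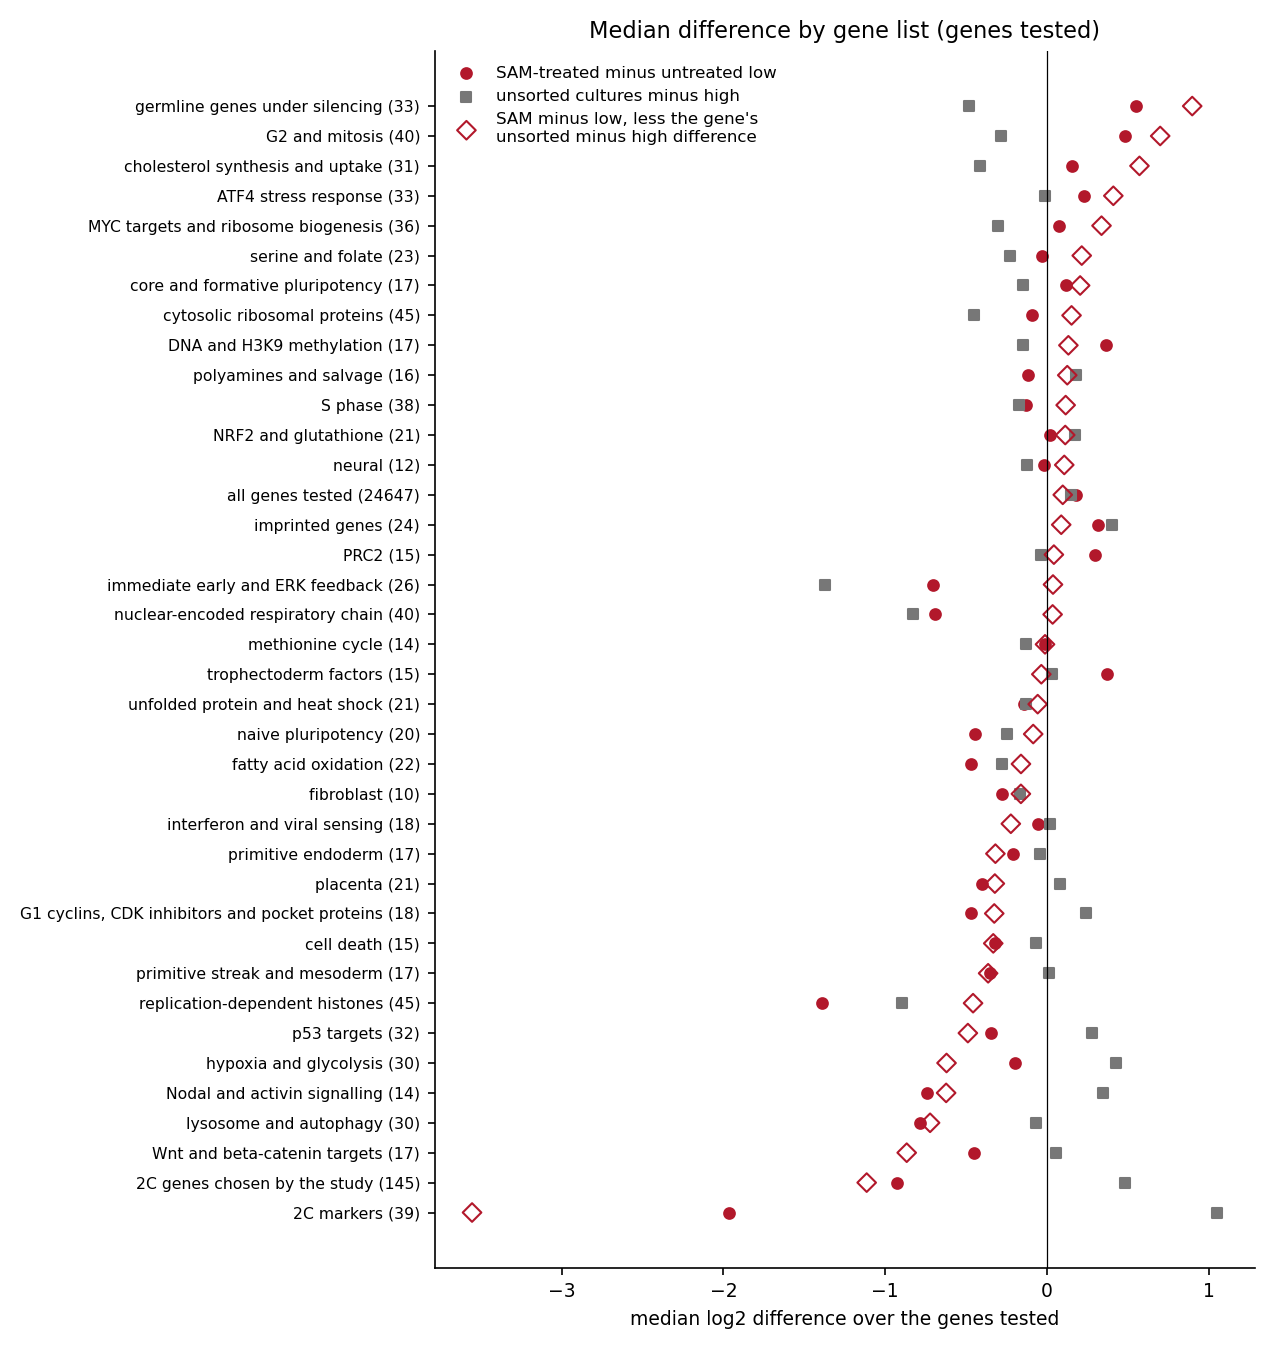
Median log2 difference over the tested members of each list (number in parentheses). Filled circles are SAM-treated minus untreated low, squares are unsorted cultures minus high, and open diamonds are the first difference after the second was subtracted gene by gene. The 2C markers lie farthest to the left (-1.97, and -3.55 after the subtraction), and germline genes are the highest list (0.55 and 0.90). For both lists the square lies on the other side of 0 from the circle, so that the subtraction enlarges the difference.

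Genes of other lineages stayed low or moved in single members. Of 15 trophectoderm factors, 3 were higher and 1 was lower. The higher share was near the 18.3% of all genes, with 7.74% among protein-coding genes. Gata3, a trophoblast transcription factor, was at 0.778 and 0.649 with 50 µM SAM, 0.666 and 0.685 with 25 µM SAM, 0.154 and 0.152 in untreated low-ΔΨm cells and 0.0377 to 0.185 in the unsorted cultures. Tfap2a and Plet1 were higher by 1.64 and 2.16 on the log2 scale, while Tfap2c had a difference of -1.37. The trophoblast factors Cdx2 and Eomes had differences of -0.13 and 0.34, and Elf5 did not pass the filter on low values. Primitive endoderm genes had 4 of 17 lower and 1 higher. Gata4 was at 0.115 to 0.190 with SAM and 0.494 and 0.602 without, the apolipoprotein gene Apoe at 34.6 to 43.6 with SAM and 288 and 310 without, and Gata6 at 0.120 to 0.184 with SAM and 0.218 and 0.238 without, short of the call. Of 12 neural genes 2 were higher and 2 lower, and of 10 fibroblast genes 2 were lower, neither keeping the call. The viral RNA sensor gene Ddx58 was at 16.8 to 17.4 with SAM, 4.73 and 4.86 without and 4.89 to 8.49 in the unsorted cultures. Y-linked genes also differed between groups: Uty was at 4.71 to 5.21 with SAM, 2.31 and 2.45 in untreated low and 0.744 and 0.953 in high cells, its log2 difference was -0.00038 after the subtraction and it did not keep the call, and all 5 tested Y-linked genes were above the unsorted cultures. The part of these differences in the results above was not tested.

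The SAM dose made no gene-level difference that passed the test. Between 50 and 25 µM, limma called 0 of 23911 genes higher (0.0%) and 0 lower (0.0%) at an adjusted p of 0.05, with a lowest adjusted p of 0.183. At an unadjusted p under 0.05, 1087 genes (4.55%) were higher and 349 (1.46%) lower with 50 µM. On the deposited scale without the median-gene scaling, limma called 93 higher and 118 lower. Missing the threshold does not show that the doses act alike, and the intervals say how large a difference remained possible. Among 14334 genes with a mean of at least 1, the 95% interval of the 50 minus 25 µM difference lay within 2-fold either way for 13023 (90.9%), and its bounds lay a median of 0.25 from the estimate on the log2 scale.

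Among the genes described above, the dose intervals were narrow and included 0 for some 2C genes and Dnmt3l, were wide for Lefty1 and T, and lay below 0 for Cdx1 and Chac1. The log2 difference, 50 minus 25 µM, was 0.05 for Zscan4c (95% interval -0.15 to 0.25), -0.03 for Zscan4f (-0.22 to 0.16), 0.06 for Gm4340 (-0.22 to 0.33) and 0.00 for Dnmt3l (-0.15 to 0.15). It was -0.12 for Lefty1 (-1.31 to 1.08) and -0.41 for both T (-1.19 to 0.36) and Sp5 (-0.87 to 0.05), and the intervals of T and Lefty1 include a 2-fold difference. Of 35 2C markers tested, 3 were higher and none lower with 50 µM at an unadjusted p under 0.05 (median 0.06).

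The lowest p-values for a higher level with 50 µM were mostly those of short RNA loci. Mir379, a microRNA of an imprinted cluster, was at 12.9 and 13.7 with 50 µM, 4.51 and 4.80 with 25 µM and 0.675 and 1.02 in untreated low-ΔΨm cells (log2 difference 1.497, SE 0.07, limma adjusted p = 0.183). Mir875 was at 1.16 and 1.32 with 50 µM and listed at 0 in both 25 µM libraries (limma adjusted p = 0.264). Mir5119, Mir6986 and Traj1 followed with adjusted p = 0.677 each by limma. The FPKM of so short a locus rests on few fragments.

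For a lower level with 50 µM, Chac1 had the lowest p (log2 difference -0.47, SE 0.07, limma adjusted p = 0.750), followed by Ift43, Mir130c, Cdx1 (-0.40, 95% interval -0.58 to -0.22) and Ccdc160, all at the same adjusted p. By unadjusted p under 0.05, the 3 lists with the largest shares in 1 direction are given beside the share of all genes. They were thus picked on these same values, and none of their members passed the adjusted test. Of 33 ATF4 targets, 7 were lower with 50 µM and none higher, against 1.46% of all genes. Of 23 serine and folate genes, 5 were lower and none higher, among them Phgdh (-0.28, -0.44 to -0.13), Psat1 (-0.22, -0.37 to -0.07), Shmt2 (-0.21, -0.36 to -0.05) and Mthfd2 (-0.30, -0.46 to -0.14). Of 32 p53 targets, 11 were higher and none lower, against 4.55% of all genes (median 0.13).

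Repeats gave a dose difference that depended on the scaling, on single libraries and on the replicate block. Of 1447 families, limma called 6 higher (0.415%) and 0 lower (0.0%) with 50 µM, and by unadjusted p 43 were higher (2.97%) and 2 lower (0.138%) at the same threshold, and the median difference over the families was 0.47. Without the median-gene scaling that median was 0.007 and no family was called. No family was called without replicate 2 of 50 µM SAM, 2 were higher without replicate 1 and 3 without replicate 2 of 25 µM SAM, and with the replicate block 1200 were higher and 7 lower. MMETn-int_LTR_ERVK, a retrovirus-like family, was at 10.04 and 10.42 with 50 µM and 8.27 and 8.90 with 25 µM as scaled FPKM over its loci. MERVL-int_LTR_ERVL was 0.47 higher with 50 µM on the log2 scale (95% interval -0.31 to 1.26, limma adjusted p = 0.554), which is the median of all families. Its value relative to the median family, 2.66 and 2.47 with 50 µM and 2.71 and 2.42 with 25 µM, overlapped between the doses.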

How the data were processed

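Total RNA was depleted of rRNA and sequenced by the authors, who trimmed the reads, aligned them to mm10 (GRCm38) with TopHat2 2.1.1, removed duplicates with SAMtools 1.9 and counted genes without strand, dividing fragments that map to several places. The FPKM values deposited by the authors came from edgeR, table by table, and HOMER 4.10 gave the repeats. Without counts, a count model was not used. FPKM were scaled by median-of-ratios factors over genes with FPKM of at least 1 in 14 libraries. Genes with FPKM of at least 0.1 in 2 of the libraries compared were kept. Log2 values used a pseudocount of 0.1 for genes and 0.01 for repeat families. Within a table, limma 3.58.1 (R 4.3.3, with an intensity trend) gave log2 differences, 95% intervals and Benjamini-Hochberg adjusted p-values with a threshold of 0.05. Across tables, no test was run. Limma was tested on simulated data. Depth was estimated by taking the commonest small product of FPKM and gene length as 1 fragment.

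The comparison and its 37 gene lists were chosen with earlier results of these data known, and 2 lists were added after the values had been seen. Genes were named by a rule: for each comparison the 10 largest called differences in each direction with a mean of at least 1 in the higher group and without a provisional symbol, the 5 lowest p in each direction where none was called, up to 4 called members a list (the 2 most abundant where none was called), and a fixed set. Genes named outside it were chosen after their values were seen. Alternatives were the deposited scale, quantile normalization, other pseudocounts, filters and thresholds, the subtraction of the unsorted minus high difference, a replicate block and leaving out each library. The table of the Eed knockout was not used here.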

Additional observations from a re-analysis of the deposited data

How the results depend on the processing

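Counts of genes called moved with the processing, and the cause was not tested unless the alternative by construction tests fewer genes or asks for another size. For SAM-treated against untreated low cells, the 4511 higher genes became 2885 with quantile normalization, 1902 with a pseudocount of 0.5, 1995 with a filter of FPKM 1, 7370 at 1.5-fold, 1078 at a log2 difference of 2 and 1503 less the unsorted minus high difference. The 2771 lower genes became 1798 on the deposited scale, 1828 with a pseudocount of 0.5, 4898 at 1.5-fold, 674 at a log2 difference of 2 and 815 after the subtraction. Of 939 list members, 78 were higher and 224 lower, against 122 higher on the deposited scale and 33 higher and 97 lower after the subtraction. With 50 µM alone, 3275 were higher with quantile normalization, and 2276 higher and 814 lower after the subtraction. With 25 µM alone, 7368 were higher and 1409 lower on the deposited scale, and 1168 higher and 909 lower after the subtraction. Against the unsorted cultures, 310 were higher and 1381 lower on the deposited scale, and 545 higher and 681 lower with quantile normalization. Leaving out each library gave 4120 to 4978 higher and 2611 to 2861 lower genes for SAM-treated against untreated low, 74 to 79 higher and 212 to 227 lower list members, 4653 to 6010 higher and 2587 to 2977 lower with 50 µM, 3493 to 4713 higher and 2694 to 3022 lower with 25 µM, and 833 to 1626 higher and 329 to 361 lower against the unsorted cultures. Against high cells it gave 2078 to 3668 higher and 2360 to 2574 lower genes in the H2O cultures, 2043 to 3560 higher and 2261 to 2448 lower in the DMSO cultures and 2234 to 3478 higher and 2913 to 3309 lower in the siCtr cultures, and 894 to 1084 higher and 31 to 39 lower repeat families with SAM than in untreated low cells. Among the 187 named genes with a value, the differences of 18 changed sign after the subtraction, to 0.30 for CT010467.1, 0.58 for Mir3113, 0.84 for Mir7578, 0.72 for Mir5131, 0.56 for Mir3062, 0.0086 for Dppa3, 0.043 for Pcna, 0.67 for Dut, 0.30 for Txn1, 1.06 for Pmvk, 0.24 for Etfb, 0.15 for Rrs1, 0.039 for Rps3, -0.11 for Atp5o, 0.14 for Col5a1, -0.00038 for Uty, 0.15 for Gsc and 0.40 for Actb.

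For 50 against 25 µM SAM, limma called 93 genes higher and 118 lower on the deposited scale, and 0 in either direction without each replicate in turn and with the replicate block. Same-numbered libraries of the 2 doses deviated together with a correlation of 0.233, and those of low and high with -0.006, and the sources do not say whether a number marks a shared culture, so that the samples were not taken as paired. With the replicate block, 1200 repeat families were higher and 7 lower with 50 µM, against 6 and 0 without it, 0 higher on the deposited scale and 0 to 5 without each replicate in turn. For untreated low against high cells, limma called 2948 higher and 1360 lower on the deposited scale, 3389 higher and 2804 lower with the replicate block, and 1211 to 3126 higher and 1166 to 2420 lower without each replicate in turn, where a lone library was assumed to vary like the other group. Leaving out 50 µM replicate 2 gave 0 repeat families. Genes at or near 0 in both untreated low libraries, and short RNA loci, have differences that depend on the pseudocount, and depth limits what can be said of them.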
